A study of Mus musculus with 24 samples.

Results

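The genes described here are 37 regulators of mitochondrial function and enzymes of antioxidant defence, followed in 3 cell populations sorted from mouse E15.5 cortex, in WT and after conditional deletion of Prdm16. The rule goes by what is known of the genes, the role of PRDM16 in the control of oxidative stress and the gene programme run by Ppargc1a, and uses no measured value. They are 37 of the 39017 genes listed in the count tables. By role, 5 are mitochondrial regulators or factors tied to them (Ppargc1a, Ppargc1b, Ppara, Ucp2, Hgf), and 4 remove superoxide or hydrogen peroxide directly (Sod1, Sod2, Sod3, Cat). A further 5 are glutathione peroxidases, 7 are peroxiredoxins or the sulfiredoxin that repairs them, and 5 belong to the thioredoxin system. The last groups are 4 genes of NRF2 control and NRF2 targets and 7 genes of glutathione synthesis, reduction and transfer.

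There are 24 libraries, 4 for each population and genotype. PAX6+ cells are labelled as radial glia, TBR2+ cells as intermediate progenitors and PAX6-TBR2- cells as cortical neurons. All animals carry Prdm16 flox/flox. Libraries called WT have no Cre by their labelled genotype, and those called KO are Emx1Ires-Cre; Prdm16flox/flox, with Cre in the Emx1 gene, which is active in the dorsal telencephalic lineage and not in the lineage of cortical interneurons. Because Cre is present in the KO libraries only, effects of Cre itself and of losing Prdm16 cannot be told apart. The series calls the replicates biological but does not name embryos or litters, so p-values measure the spread between these libraries.

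Mitochondria leak superoxide as they respire. Superoxide dismutases turn it into hydrogen peroxide, which catalase, the glutathione peroxidases and the peroxiredoxins remove with reducing power from glutathione and thioredoxin. PGC1a, the protein of Ppargc1a, is a coactivator that raises mitochondrial biogenesis together with many antioxidant enzymes, and NRF2, the protein of Nfe2l2, is the transcription factor that turns on much of the glutathione and thioredoxin machinery when KEAP1 releases it. PRDM16 is a zinc finger regulator known as a partner of PGC1a in brown fat, and in neural stem cells it is known to hold down reactive oxygen species, in part through Hgf. In the developing cortex, radial glia are the stem cells, intermediate progenitors are their dividing daughters, and neurons are the product.

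Library totals ran from 4948977 to 12554161 counts, apart from 30027954 counts in WT PAX6-TBR2- replicate 4. Levels are given as CPM, the count of a gene scaled for the size of its library over all 24 libraries. Prdm16 itself was at 253 ± 34.1 CPM in WT PAX6+ and 187 ± 27.2 CPM in KO PAX6+ (SD, n = 4 each). The difference, -0.43 on the log2 scale, missed the threshold (edgeR adjusted p = 0.058). In TBR2+ it was at 46.1 to 79.5 CPM in WT and 42.3 to 59.9 CPM in KO, and in PAX6-TBR2- at 13.7 to 33.5 and 11.3 to 29.2 CPM. The groups overlapped in each population, and since the floxed exons are not named in the labels, whole-gene counts check the genotype only in part. The sorted populations carried the markers of their labels. Summed over 9 radial glia genes, PAX6+ libraries were at 2861 to 3857 CPM and all others at 210 to 713 CPM, and 7 intermediate progenitor genes summed to 1701 to 2275 CPM in TBR2+ libraries and 254 to 518 CPM elsewhere. TBR2+ libraries also held neuronal genes, at a sum of 6118 to 8187 CPM over 8 genes against 7391 to 8896 CPM in PAX6-TBR2- libraries and 346 to 416 CPM in PAX6+. PAX6-TBR2- libraries held interneuron genes as well, at a sum of 345 to 1105 CPM over 7 genes against 3.78 to 27.8 CPM elsewhere. Cajal-Retzius genes summed to 104 to 520 CPM in TBR2+ libraries and to 130 to 191 CPM in PAX6-TBR2- libraries. They reached 292 CPM in 1 WT PAX6+ library. In bulk libraries a smaller share of expressing cells and less RNA per cell cannot be told apart. Names of libraries carry 1 prefix per population, so population and sequencing set cannot be told apart either.

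Of the 37 genes, 33 were abundant enough to be tested in at least 1 comparison. Ppara, the fatty acid sensor that works with PGC1a, was at 0 to 15 counts in a library and at 0 in 7 libraries. Nqo1, a quinone reductase often used as a readout of NRF2, had 0 to 6 counts and was at 0 in 9 libraries. Sod3, the secreted superoxide dismutase, had 0 to 4 counts. Hgf, which encodes a secreted growth factor, had 0 to 15 counts. It was detected in each WT PAX6+ library, at 0.263, 0.342, 0.943 and 0.407 CPM, and in the KO PAX6+ libraries it was at 0, 0.23, 0.176 and 0.426 CPM. It had no count in any TBR2+ library of either genotype or in any KO PAX6-TBR2- library, where a count of 0 allows up to 3 counts in a library. At these depths no difference in Hgf between genotypes was detectable.

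**Figure D1:**
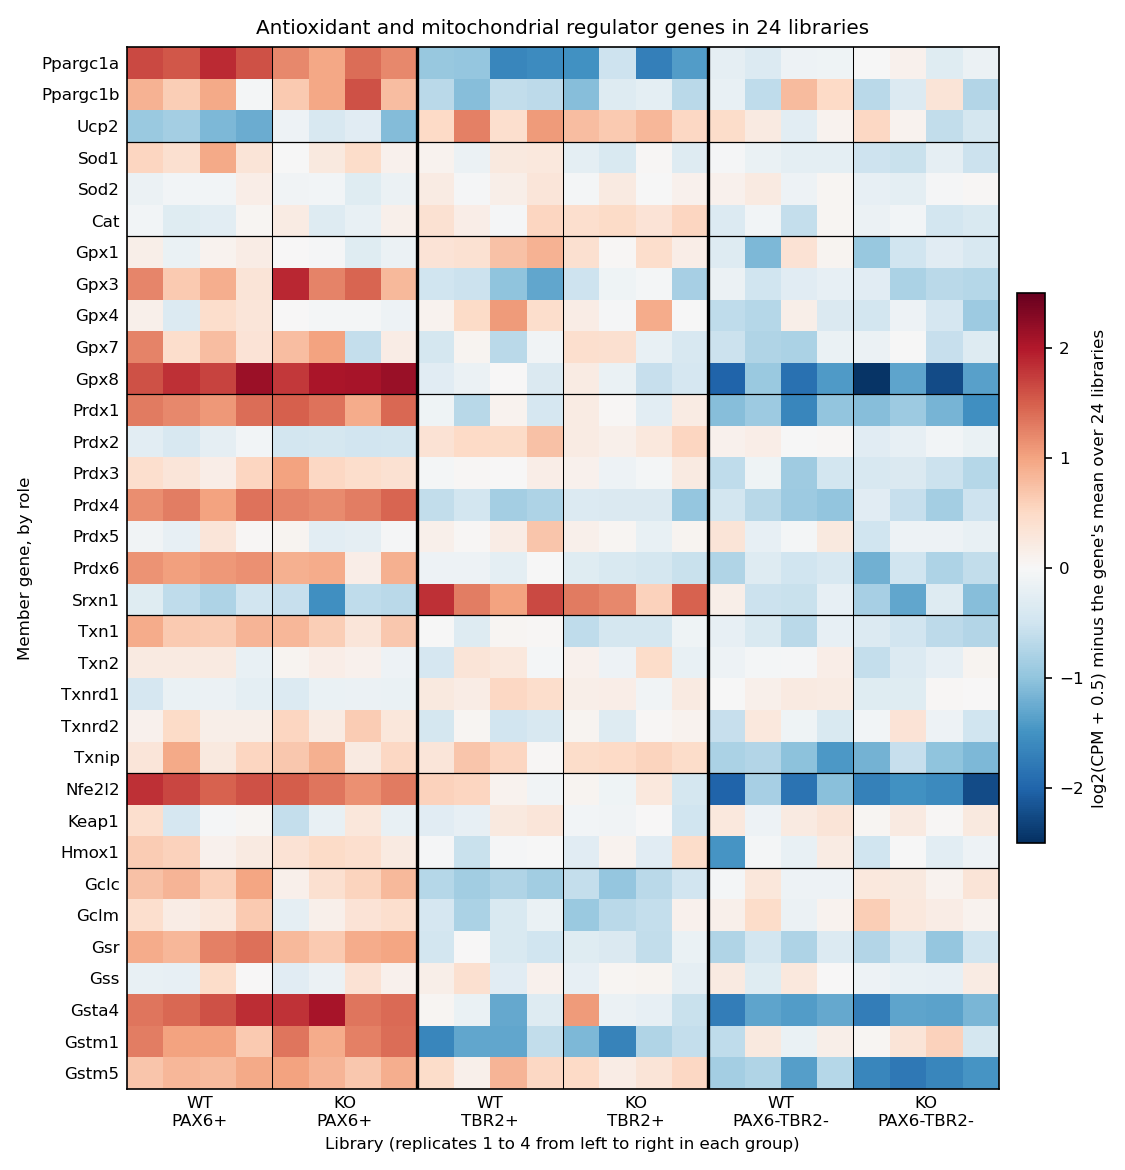
Level of the 33 tested members in each of the 24 libraries, as log2(CPM + 0.5) minus the mean of the gene over all libraries; rows are grouped by role and columns by population, genotype and replicate. Most rows are high in the PAX6+ columns, 5 rows (Cat, Gpx1, Prdx2, Srxn1, Ucp2) are high in the TBR2+ columns, and the WT and KO columns of a population look alike.

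The first comparison was between genotypes in PAX6+ cells, the population in which Prdm16 was highest. Ppargc1a fell. In the fit without a replicate block it was the only member called by edgeR's quasi-likelihood test at an adjusted p under 0.05. In this comparison 3.64% of all 14212 genes tested were called, and 1.19% called lower. The share of 1 in 33 members tested is near that background, so the count does not set the members apart. With the replicate number as a block, Sod1 and Nfe2l2 were called too, and 7.35% of all genes. The difference was positive for 14 of the 33 and negative for 19, and its median was -0.07 on the log2 scale against 0.00 for all genes tested. At an unadjusted p under 0.05 there were 7 members, and 1730 of all genes tested.

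Ppargc1a (ENSMUSG00000029167; GRCm38 chromosome 5, 51454250 to 51567726, minus strand) was at 45.8, 42.4, 52.6 and 43.8 CPM in WT PAX6+ replicates 1 to 4. In KO PAX6+ it was at 33.1, 28.1, 38.3 and 33.2 CPM. Every KO library was lower than every WT library, and the means were 46.1 ± 4.55 and 33.2 ± 4.16 CPM (SD, n = 4 each). The log2 fold change was -0.47 (SE 0.12), or 1.39-fold lower, with an edgeR adjusted p of 0.0409. Without a replicate block the call is not firm. It was lost in the fit of all 24 libraries (-0.48, edgeR adjusted p = 0.131) and in all but 1 of the 8 fits that left out 1 library. The exception was the fit without KO PAX6+ replicate 3. In those 8 fits the fold change ran from -0.39 to -0.55 and the edgeR adjusted p from 0.0272 to 0.185. Ppargc1a passed in DESeq2 (adjusted p = 0.00993) and in edgeR with the replicate number as a block (adjusted p = 0.00264). No library was left out in a fit with the block.

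The series gives no binding data for the Ppargc1a promoter. As background, this promoter is known to respond to cyclic AMP through a CREB site close to the start, and the window below is shown because it holds the core of such a site, TGACG, searched on both strands of the 250 bases before each RefSeq start (GRCm38.p6). The capitals mark the match, which lies on the other strand and 49 bases before the start, at chr5:51567760-51567784 with the minus strand printed.
Ppargc1a: tgccctcccaCGTCActgagctcca
The same letters stood in that window for 10 of the 30 members with a promoter in the table (33.3%) and for 19.8% of 27025 genes. A match of 5 letters is a description and not a site.

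The other mitochondrial regulators did not pass the test in PAX6+ cells. Ucp2, which encodes an inner membrane carrier named for uncoupling, was at 4.47, 4.72, 3.84 and 3.46 CPM in WT PAX6+ and at 8.07, 6.59, 7.21 and 3.92 CPM in KO PAX6+. In KO, 3 of 4 libraries lay above all WT libraries and replicate 4 lay among them (log2 fold change 0.64, SE 0.25, edgeR adjusted p = 0.252). Ppargc1b, the close relative of Ppargc1a, was at 1.4, 1.1, 1.51 and 0.509 CPM in WT PAX6+ and at 1.14, 1.53, 2.64 and 1.28 CPM in KO PAX6+, with overlapping groups (0.53, SE 0.41, edgeR adjusted p = 0.71). Of the antioxidant groups no member passed in the fit without a replicate block, and Sod1 and Nfe2l2 did with it.

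Among the enzymes, those with an unadjusted p under 0.05 in PAX6+ cells were mostly lower in KO, and they are described here because of that p. Prdx6, a peroxiredoxin that also acts on oxidised phospholipids, was at 67.1, 62.4, 65.1 and 68.1 CPM in WT and at 56.5, 58.7, 34.5 and 56.8 CPM in KO. The groups did not overlap, but KO replicate 3 stood apart from the other KO libraries (-0.34, SE 0.14, edgeR adjusted p = 0.327, and -0.19 without it). Prdx2, the cytosolic peroxiredoxin abundant in neurons, was at 121 to 151 CPM in WT and in the narrow range of 114 to 117 CPM in KO, again without overlap (-0.22, SE 0.10, edgeR adjusted p = 0.342). With Ppargc1a, 3 of the 33 members had such groups, and how many of all genes had them was not counted. Gpx3, the plasma glutathione peroxidase, had the opposite sign, from 4.5 ± 1.31 CPM (WT) to 7.05 ± 2.31 CPM (KO), a log2 fold change of 0.64 (SE 0.27, edgeR adjusted p = 0.32) with overlapping groups.

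Sod1, the copper-zinc superoxide dismutase of the cytosol, and Nfe2l2 depended on how the replicates were treated. Sod1 was at 85.1, 77.8, 113 and 73.0 CPM in WT PAX6+ and at 57.9, 69.3, 80.6 and 62.8 CPM in KO PAX6+, and replicate 3 was the highest library in both genotypes. Nfe2l2 was at 47.6, 42.7, 37.3 and 40.6 CPM in WT and at 38.3, 34.0, 29.4 and 33.2 CPM in KO, with replicate 1 highest and replicate 3 lowest in both. Without a block neither passed, with log2 fold changes of -0.36 (SE 0.14, edgeR adjusted p = 0.266) for Sod1 and -0.31 (SE 0.12, edgeR adjusted p = 0.258) for Nfe2l2. With the replicate number as a block both were called lower in KO, Sod1 at -0.35 (SE 0.08, edgeR adjusted p = 0.0137) and Nfe2l2 at -0.31 (SE 0.09, edgeR adjusted p = 0.0426), which made 3 members with Ppargc1a. The block raised the share of all genes called to 7.35%.

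**Figure D2:**
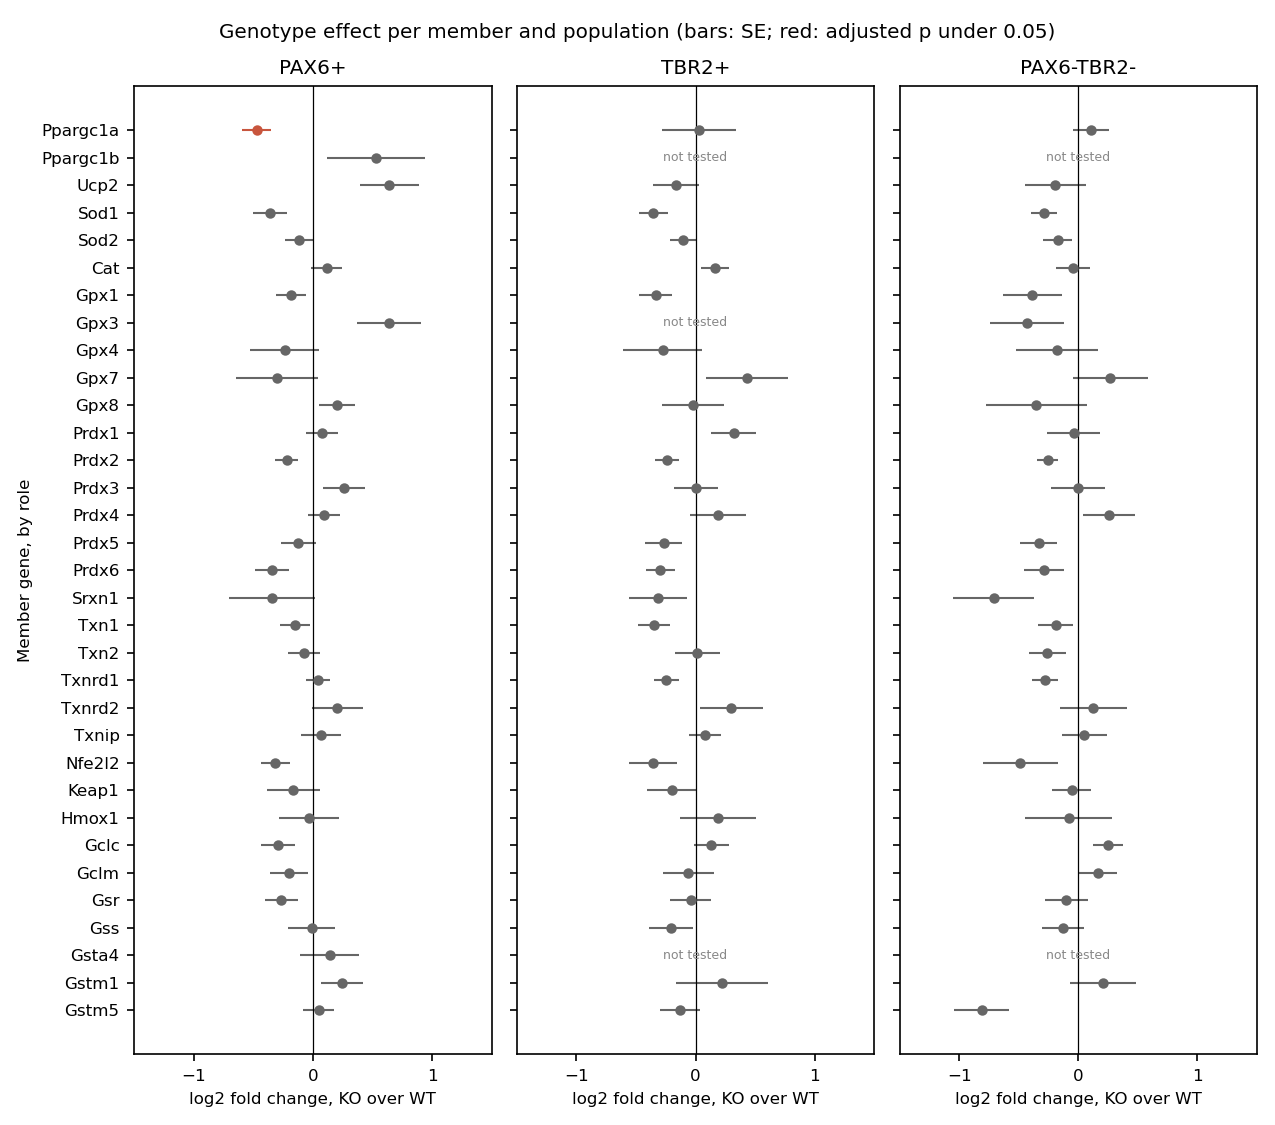
KO over WT log2 fold change with its SE for every tested member in the 3 populations, grouped by role; red marks a call at an edgeR adjusted p under 0.05 and members too low to test are marked. Ppargc1a in PAX6+ cells, at -0.47, is the only red point in these fits, which have no replicate block.

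Cell type markers moved in the same comparison. In KO PAX6+ the sum of the 9 radial glia genes was 3256 to 3857 CPM against 2861 to 3342 CPM in WT. Of the 9, 7 were above 0 and 2 below, and the means of Pax6 (435 to 423 CPM) and Nes (563 to 491 CPM) were lower in KO. The only 1 called was Slc1a3, a glutamate transporter of radial glia, which was higher (0.43, SE 0.11, edgeR adjusted p = 0.0354). The sum of the 7 intermediate progenitor genes was 326 to 446 CPM in KO and 360 to 518 CPM in WT, with 1 above 0 and 6 below. Both Insm1 (-0.52, edgeR adjusted p = 0.0174) and Eomes (-0.74, edgeR adjusted p = 0.0358) were called lower. Of the 8 neuronal genes only Dcx was called (-1.01), with 3 of the 8 above 0 and sums of 346 to 416 CPM in WT and 358 to 379 CPM in KO. The interneuron gene Gad2 (-1.68), the meningeal gene Col1a2 (-2.06) and the astrocyte gene Aqp4 (-1.66) were lower too. The interneuron sum was 7.46 to 27.8 CPM in WT and 6.64 to 8.74 CPM in KO, and that of astrocyte and oligodendrocyte precursor genes 7.05 to 13.2 CPM in WT and 2.68 to 6.0 CPM in KO. The sum of the 5 meningeal genes was 3.29 to 4.78 CPM in WT and 1.06 to 3.6 CPM in KO, with Lum at 0 in both. Without a call, the 3 tested Cajal-Retzius genes (median -1.33) and the 6 tested endothelial and mural genes (median -0.62) were all below 0. Of 2 tested erythroid genes 1 was above 0 and 1 below, and the only microglial gene tested was above 0. The share of mitochondrially encoded counts was 11.27% to 23.98% in KO and 14.42% to 20.2% in WT, and Ppargc1a was still called when those genes were left out (-0.47, edgeR adjusted p = 0.0413). The part of cell composition in the differences of the members was not tested.

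In TBR2+ cells none of 30 members passed edgeR's test between KO and WT, against 1.76% of 12687 genes, and DESeq2 called 0 as well. At an unadjusted p under 0.05 there were 6 members, beside 1566 of all genes tested, and each was lower in KO: Sod1 (log2 fold change -0.35), Txn1 (-0.35), Gpx1 (-0.34), Prdx6 (-0.30), Txnrd1 (-0.25) and Prdx2 (-0.24). Their edgeR adjusted p-values ran upwards from 0.227, for Sod1. Prdx6 was at 27.8, 27.9, 25.7 and 30.2 CPM in WT and at 24.7, 23.4, 22.4 and 20.6 CPM in KO. It was the only member in TBR2+ whose groups did not overlap, and how many of all genes had such groups was not counted. In the same comparison all 6 Cajal-Retzius genes were above 0 with a median of 0.71, without a call, and the share of mitochondrially encoded counts was 30.52% to 39.27% in KO and 24.75% to 33.09% in WT. The part of these in the differences of the members was not tested. Ppargc1a was low in both genotypes here, at 5.7 ± 1.6 and 5.85 ± 2.65 CPM (0.03, SE 0.31, 95% interval -0.58 to 0.63), an interval that includes the difference seen in PAX6+ cells.

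In PAX6-TBR2- cells 0 of 31 members passed, and the comparison as a whole called 1 of 12928 genes (0.00774%). DESeq2 called none of the members. At an unadjusted p under 0.05 there were 5, beside 854 of all genes tested: Gstm5 (-0.81), Prdx5 (-0.33), Sod1 (-0.29), Txnrd1 (-0.28) and Prdx2 (-0.26), all lower in KO, and over all 31 members the difference was positive for 8 and negative for 23, and its median was -0.17 against 0.00 for all genes tested. Beside this, the 7 interneuron genes were all above 0 (median 0.41) and the 6 tested intermediate progenitor genes all below (median -0.30), without a call. Interneuron sums were 345 to 948 CPM in WT and 462 to 1105 CPM in KO, and their part in the members' differences was not tested. Gstm5, a glutathione transferase of the mu class, was at 6.43, 6.94, 4.34 and 7.2 CPM in WT and at 3.57, 3.11, 3.54 and 4.01 CPM in KO. The groups did not overlap, and the fold change was 1.76-fold with an edgeR adjusted p of 0.532. An antisense gene shares 178 bases of its exons and holds 4016 counts against its own 3348 over all libraries, and because the strand setting of the counting is not given, reads of these genes may be mixed. Prdx2 was at 158 to 178 CPM in WT and 130 to 152 CPM in KO, also without overlap (edgeR adjusted p = 0.598). These were the 2 members of 31 with such groups, and how many of all genes had them was not counted. Ppargc1a was at 12.3 ± 1 and 13.4 ± 1.63 CPM (0.11, SE 0.15, 95% interval -0.19 to 0.40).

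Whether the genotype effect differed between populations was tested as an interaction. No member passed in edgeR, 0 of 33 for TBR2+ minus PAX6+ (0.612% of all genes called), 0 of 31 for PAX6-TBR2- minus TBR2+ (0.051%) and 0 of 33 for PAX6-TBR2- minus PAX6+ (0.775%), and DESeq2 called none of them. At an unadjusted p under 0.05 there were 1, 1 and 7 members, beside 1081 of 14548, 678 of 13725 and 1067 of 15102 genes. Gstm5 had the lowest adjusted p, for PAX6-TBR2- minus PAX6+ (-0.87, SE 0.24, edgeR adjusted p = 0.138), and it passed only without WT PAX6-TBR2- replicate 3 (-1.01, edgeR adjusted p = 0.0357). For Ppargc1a the effect in PAX6-TBR2- minus that in PAX6+ was 0.58 (SE 0.19, edgeR adjusted p = 0.287), and for TBR2+ minus PAX6+ it was 0.50 (SE 0.30, edgeR adjusted p = 0.859). For Ucp2, positive in PAX6+ and not in the others (-0.16 in TBR2+, -0.19 in PAX6-TBR2-), the differences were -0.80 (SE 0.31, edgeR adjusted p = 0.448) and -0.83 (SE 0.36, edgeR adjusted p = 0.608). The lower Ppargc1a in KO radial glia was thus not shown to be particular to radial glia.

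The populations differed far more than the genotypes. In WT, TBR2+ against PAX6+ cells called 22 of 32 members, 6 higher and 16 lower, where 63.2% of all genes were called (31.0% higher and 32.2% lower). PAX6-TBR2- against TBR2+ called 17 of 30, 4 higher and 13 lower, where 49.0% of all genes were called (25.6% higher and 23.4% lower). PAX6-TBR2- against PAX6+ called 20 of 33, 3 higher and 17 lower, where 66.6% of all genes were called (32.9% higher and 33.7% lower). The shares called were thus near those of all genes, while 16, 13 and 17 of the members called were lower in the later population. The medians of the members were -0.51, -0.28 and -0.74 on the log2 scale, and those of all genes tested -0.02, -0.01 and -0.01.

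In WT, 14 members were called lower than in PAX6+ in both other populations: Gclc, Gpx3, Gpx7, Gpx8, Gsr, Gsta4, Gstm1, Nfe2l2, Ppargc1a, Prdx1, Prdx4, Prdx6, Sod1 and Txn1. Of these, Gpx3 and Gsta4 passed the filter only through the PAX6+ libraries. A second set of 5, Cat, Gpx1, Prdx2, Srxn1 and Ucp2, was called higher in TBR2+ than in PAX6+ and higher than in PAX6-TBR2-. Gstm5, Prdx3 and Txnip were called lower in PAX6-TBR2- than in both others, with no call between TBR2+ and PAX6+. No comparison called Gss, Hmox1, Keap1, Prdx5, Sod2 or Txn2. Keap1, the NRF2 inhibitor, was at a WT mean of 10.3, 10.3 and 11.5 CPM in PAX6+, TBR2+ and PAX6-TBR2- cells, and Sod2, the mitochondrial superoxide dismutase, at 29.9, 34.1 and 32.0 CPM. The KO libraries, which are other libraries, gave the same 5 TBR2+ genes, 12 of the 14 members lower outside PAX6+ and the same pattern for 27 of 33 members. These patterns and their repeats were not counted over all genes. Of all genes, 32.2% were called lower in TBR2+ than in PAX6+ and 33.7% lower in PAX6-TBR2- than in PAX6+. The pattern counts therefore do not set the members apart.

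Some of these assignments rest on single libraries. Between TBR2+ and PAX6-TBR2- in WT, the call of Ucp2 was lost without WT TBR2+ replicate 2 (-0.58, edgeR adjusted p = 0.0508) and that of Cat without WT TBR2+ replicate 4 (-0.39, edgeR adjusted p = 0.0501). The call of Prdx3 in that step, -0.56, was lost without any WT TBR2+ replicate and without WT PAX6-TBR2- replicate 1, 3 or 4 (-0.45 to -0.60). In KO, Gpx1 between TBR2+ and PAX6+ was lost without KO PAX6+ replicate 3 or KO TBR2+ replicate 1 or 3 (0.35 to 0.37), and Sod1 without KO PAX6+ replicate 3 or KO TBR2+ replicate 2 (-0.32 and -0.36).

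**Figure D3:**
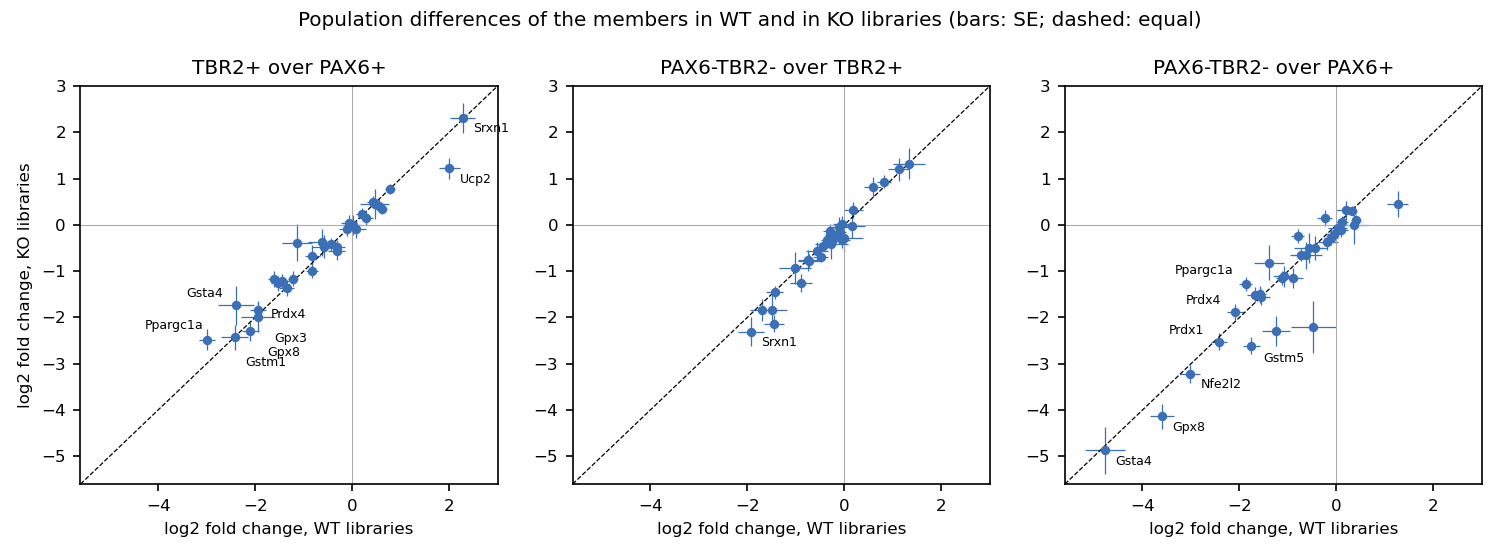
Log2 fold change between populations in WT (horizontal) against the same comparison in KO (vertical) for each tested member, with SE bars and the line of equality, in 3 panels for TBR2+ over PAX6+, PAX6-TBR2- over TBR2+ and PAX6-TBR2- over PAX6+. Ppargc1a lies at -2.99 and -2.48 in the first panel, and Srxn1 and Ucp2 at its upper end.

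Ppargc1a had its lowest level in TBR2+ cells and not in neurons. In WT TBR2+ it was at 7.14, 7.02, 4.22 and 4.42 CPM, and in WT PAX6-TBR2- at 12, 11.0, 13.0 and 13.2 CPM. Both groups lay below all WT PAX6+ libraries, 7.93-fold lower in TBR2+ (log2 fold change -2.99, SE 0.17, edgeR adjusted p = 8.45e-11) and 3.67-fold lower in PAX6-TBR2- (-1.88, SE 0.13, edgeR adjusted p = 2.93e-09). From TBR2+ to PAX6-TBR2- it was 2.17-fold higher (1.12, SE 0.21, edgeR adjusted p = 0.000459). The KO libraries gave -2.48, -1.28 and 1.20 for the same steps.

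Ucp2 ran the other way. In WT TBR2+ it was at 12.8, 21.9, 12.1 and 19.2 CPM and in WT PAX6-TBR2- at 12.4, 10.5, 7.36 and 9.43 CPM, all above the 3.46 to 4.72 CPM of WT PAX6+. It was 4.02-fold higher in TBR2+ than in PAX6+ (2.01, SE 0.22, edgeR adjusted p = 3.57e-07) and 2.39-fold higher in PAX6-TBR2- (1.26, SE 0.21, edgeR adjusted p = 7.31e-05). In KO the step from PAX6+ to PAX6-TBR2- was 0.44 and did not pass (edgeR adjusted p = 0.183), beside a higher mean of 6.45 CPM in KO PAX6+. Dnajb13 shares 305 bases of Ucp2 exons on the opposite strand, with 14 counts in all libraries together against 1934 of Ucp2. Ppargc1b was at or under 1.51 CPM in every WT library. In WT TBR2+ it had 3 counts in all and was too low to be tested there, and in WT PAX6-TBR2- it was at 0.415, 0.169, 1.31 and 0.972 CPM (-0.48 against PAX6+, edgeR adjusted p = 0.378). In KO it was called lower than in PAX6+ in TBR2+ (-2.90, edgeR adjusted p = 0.00081, on 5 counts) and in PAX6-TBR2- (-2.21, edgeR adjusted p = 0.00242, on 9 counts), where it passed the filter through the PAX6+ libraries. These steps were not shown to differ between genotypes.

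**Figure D4:**
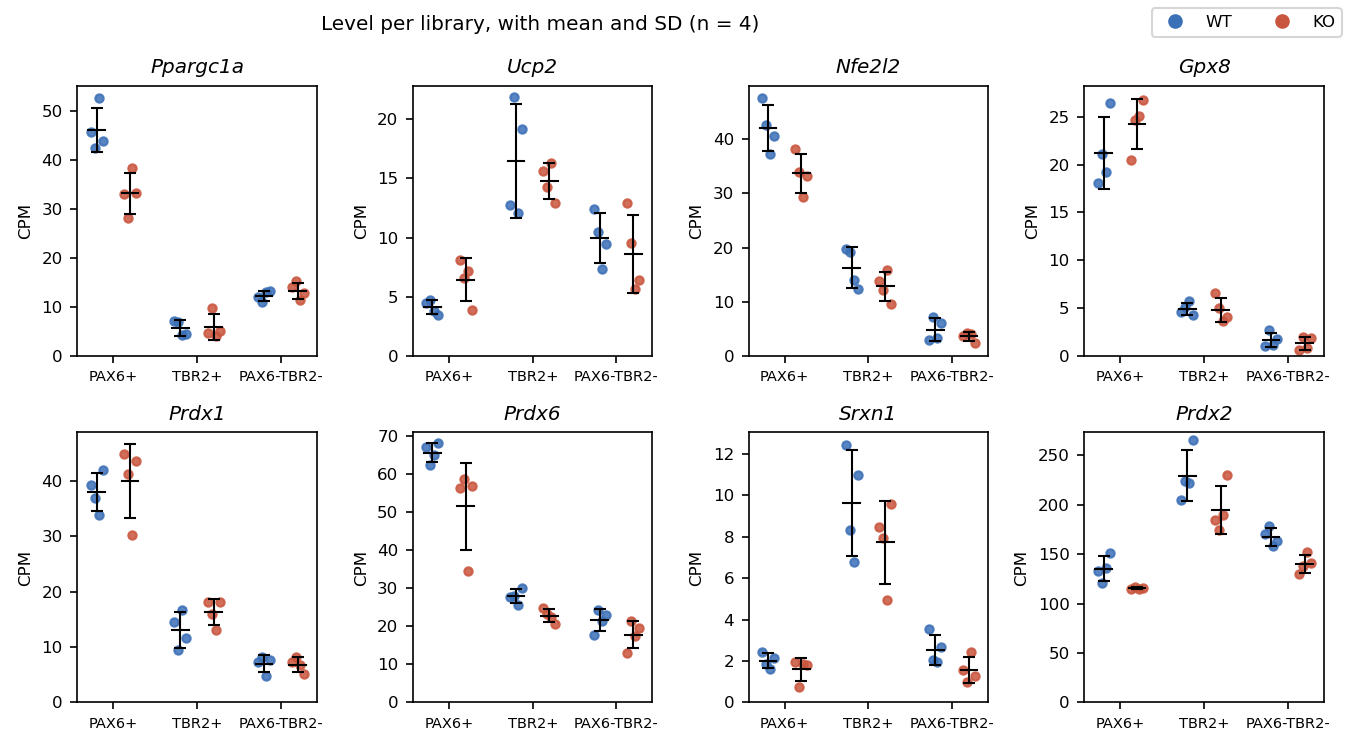
CPM of 8 members (Ppargc1a, Ucp2, Nfe2l2, Gpx8, Prdx1, Prdx6, Srxn1, Prdx2) in each library of the 6 groups, with the mean and SD of each group. Ppargc1a, Nfe2l2, Gpx8, Prdx1 and Prdx6 are highest in PAX6+ libraries, while Ucp2, Srxn1 and Prdx2 are highest in TBR2+ libraries.

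The dismutases and catalase had smaller differences between populations. Sod1 was called lower outside PAX6+ in WT, with means of 87.3 ± 18, 63.7 ± 8.28 and 52.0 ± 3.71 CPM in PAX6+, TBR2+ and PAX6-TBR2- cells (-0.44 and -0.74 against PAX6+). Catalase was higher in TBR2+, at 88.7 ± 15.2 CPM against 66.4 ± 7.93 CPM in PAX6+ (0.44, SE 0.12, edgeR adjusted p = 0.00547), though these groups overlapped, and it was at 62.6 ± 12.3 CPM in PAX6-TBR2-. In KO cells the same step was 0.50 (edgeR adjusted p = 0.0033), without overlap. Cat and Sod1 were among the most abundant members per exon length, and Sod2, at 2.98 CPM per kb, was not. The length merges all annotated exons, 2613 bases for Cat, 3970 for Sod1 and 10008 for Sod2. This ranking therefore depends on the annotation as well as on the counts. In WT PAX6+ cells Txn1 stood first at 56.9 CPM per kb, followed by Prdx2 at 44.3, Cat at 25.4, Sod1 at 22.0 and Gpx1 at 21.1 CPM per kb.

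Glutathione peroxidases split. Gpx8, an enzyme of the endoplasmic reticulum, was at 18.1, 21.2, 19.2 and 26.5 CPM in WT PAX6+, at 4.56, 5.06, 5.69 and 4.26 CPM in WT TBR2+ and at 1.04, 2.71, 1.18 and 1.8 CPM in WT PAX6-TBR2-. It was the most different of the peroxidases, 12.1-fold lower in PAX6-TBR2- than in PAX6+ (-3.60, SE 0.24, edgeR adjusted p = 2.77e-09), with no overlap at either step. Gpx7, its relative in the same compartment, was also lower in both, from 4.75 ± 1.57 CPM to 2.13 ± 0.594 and 1.66 ± 0.457 CPM. Gpx3 was lower as well (-1.94 and -1.25 against PAX6+), but it passed the filter through the PAX6+ libraries and was too low to be tested between TBR2+ and PAX6-TBR2-. Gpx1, the main cytosolic peroxidase, was instead higher in TBR2+, at 44.1 ± 7.96 CPM against 30.5 ± 3.37 CPM (0.55, SE 0.13, edgeR adjusted p = 0.00178). Gpx4, the lipid peroxidase that guards against ferroptosis, was counted at only 1.89 to 3.99 CPM in the WT means. It has 2 copies of at least 95% identity, at up to 99.7% and with a longest match of 733 bases. How the counting divided reads between copies is not given in the sources used here, so its level is uncertain. Gstm1, Prdx1, Prdx2, Sod1 and Txn1 have copies too, at up to 97.9%, 98.3%, 96.3%, 97.8% and 95.8% identity. Sod2 has 8 such copies and Gclm 1, over shorter matches of at most 193 and 103 bases. Those of Sod2 held 98683 counts against its own 6614. The same limit holds for the levels of all these members, and its size was not tested.

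Among the peroxiredoxins, Prdx1, Prdx4 and Prdx6 marked PAX6+ cells and Prdx2 did not. Prdx1, a cytosolic enzyme under NRF2 control, was at 39.3, 36.9, 34.0 and 42.0 CPM in WT PAX6+, at 14.6, 9.48, 16.7 and 11.6 CPM in TBR2+ and at 7.26, 8.13, 4.73 and 7.74 CPM in PAX6-TBR2-. The 3 groups did not overlap, and the last was 5.34-fold below the first (-2.42, SE 0.17, edgeR adjusted p = 3.32e-09). Prdx4, the peroxiredoxin of the endoplasmic reticulum, was at 21.4, 23.5, 19.4 and 24.6 CPM in WT PAX6+. It was at 5.92, 6.7, 4.96 and 5.24 CPM in TBR2+ and at 6.64, 5.59, 4.73 and 4.5 CPM in PAX6-TBR2-, with no call between those (-0.12, SE 0.23). Prdx6 was at 62.4 to 68.1 CPM in WT PAX6+, at 27.9 ± 1.82 CPM in TBR2+ and at 17.8, 24.2, 21.4 and 23.1 CPM in PAX6-TBR2- (-1.22 and -1.57). The small step of Prdx6 between the last populations, -0.35 (edgeR adjusted p = 0.0402), was lost in 9 of 14 alternative settings, among them the fits without WT TBR2+ replicate 1, 2 or 4 or without WT PAX6-TBR2- replicate 1, 3 or 4 (-0.27 to -0.38).

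Prdx2 and Srxn1 peaked in TBR2+ cells, and their values are given because of that pattern. Prdx2 was at 133, 121, 136 and 151 CPM in WT PAX6+, at 205, 224, 222 and 265 CPM in WT TBR2+ and at 170, 178, 158 and 163 CPM in WT PAX6-TBR2-. No group overlapped another (0.78, SE 0.10, edgeR adjusted p = 3.72e-06 for TBR2+ over PAX6+). Srxn1, the sulfiredoxin that returns overoxidised peroxiredoxins to service, was at 2.45, 1.85, 1.63 and 2.14 CPM in WT PAX6+ and at 12.5, 8.33, 6.79 and 11.0 CPM in WT TBR2+. It was 4.87-fold higher there (2.28, SE 0.26, edgeR adjusted p = 5.25e-07) and 3.78-fold lower again in PAX6-TBR2- (-1.92, SE 0.27, edgeR adjusted p = 2.69e-05), at 2.55 ± 0.723 CPM. The KO libraries gave 2.31 and -2.31 for these steps. Prdx3, in mitochondria, was at 10 ± 1.14, 7.92 ± 0.537 and 5.32 ± 1.35 CPM in the 3 WT populations, and was called lower in PAX6-TBR2- than in PAX6+ (-0.89, edgeR adjusted p = 0.00114).

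In the thioredoxin system, Txn1, the cytosolic thioredoxin, was lower outside PAX6+ (59.8 ± 5.94 CPM against 33.5 ± 3.85 and 27.1 ± 4.02 CPM in WT; -0.82 and -1.12). Txnrd1, the reductase that recharges it, was higher, at 81.6 ± 7 CPM in PAX6+ against 123 ± 13.3 CPM in TBR2+ and 106 ± 7.59 CPM in PAX6-TBR2- (0.61 and 0.40, edgeR adjusted p = 6.48e-05 and 0.00357). Txnip, which binds and restrains thioredoxin, was at 42.3, 66.7, 41.0 and 49.8 CPM in PAX6+ and at 42.5, 55.5, 49.7 and 34.9 CPM in TBR2+, overlapping. It was at 19.5, 20.3, 16.7 and 12.5 CPM in PAX6-TBR2-, below every library of the other populations (2.96-fold below PAX6+, -1.56, SE 0.19, edgeR adjusted p = 1.98e-06). An antisense gene shares 606 bases of Txnip exons, with 111 counts against 8442.

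Nfe2l2 (GRCm38 chromosome 2, 75675513 to 75704641, minus strand) stepped down along the sequence of populations. WT PAX6+ libraries were at 37.3 to 47.6 CPM, WT TBR2+ at 19.7, 19.3, 13.9 and 12.3 CPM and WT PAX6-TBR2- at 2.9, 7.11, 3.29 and 6.12 CPM. The groups did not overlap, with 2.54-fold less in TBR2+ than in PAX6+ (-1.34, SE 0.15, edgeR adjusted p = 6.4e-07) and 8.13-fold less in PAX6-TBR2- than in PAX6+ (-3.02, SE 0.21, edgeR adjusted p = 4.77e-09). In KO the latter was -3.21. Hmox1, the haem oxygenase, was at 3.65 ± 0.738, 2.35 ± 0.479 and 2.13 ± 1.07 CPM in the WT populations and passed in no comparison.

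NRF2 acts through antioxidant response elements, and the letters TGACNNNGC of that motif were searched on both strands of the 250 bases before each RefSeq start (GRCm38.p6). They stood there for 7 of the 30 members matched (23.3%) and for 11.5% of 27025 genes, an untested difference. The windows below are shown because these members had the clearest population patterns: Nfe2l2, Prdx1 and Gstm5 were lowest in PAX6-TBR2- cells, and Ucp2 was highest in TBR2+. Capitals mark the match, on the printed strand of the gene for Nfe2l2 and Gstm5 and on the other strand, where it is printed as its reverse complement, for Prdx1 and Ucp2. They lie at chr2:75704885-75704913 (minus strand), chr3:107895802-107895830, chr4:116685456-116685484 and chr7:100493282-100493310.
Nfe2l2: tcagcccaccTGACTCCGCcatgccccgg
Gstm5: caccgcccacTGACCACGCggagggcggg
Prdx1: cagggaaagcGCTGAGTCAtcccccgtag
Ucp2: ccctggctccGCCTCGTCAcgccacgccc
Members with the match thus moved in opposite directions between populations. In the Ucp2 window the match overlaps one to TGACG. Sod1, Txnrd1 and Gclm also held the match, while Srxn1 and Gsr did not in this window, from which nothing follows about NRF2.

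Most glutathione genes were highest in PAX6+ cells. Summed, the 7 genes were at 160 ± 14 CPM in WT PAX6+, 76.0 ± 1.65 CPM in TBR2+ and 83.3 ± 8.36 CPM in PAX6-TBR2- (SD, n = 4 each). Gclc, the catalytic subunit of the rate-limiting enzyme of glutathione synthesis, was at 49.0 ± 5.66 CPM in WT PAX6+, 15.8 ± 0.918 CPM in TBR2+ and 28.0 ± 4.09 CPM in PAX6-TBR2-, so that, like Ppargc1a, it was lowest in TBR2+ (-1.61 against PAX6+, and 0.83 from TBR2+ to PAX6-TBR2-, edgeR adjusted p = 0.000178). Gclm, the modifier subunit, had the same order with smaller steps (-0.82 and 0.59). Gstm1, another mu class transferase, was at 10.1 ± 1.85, 1.86 ± 0.752 and 4.55 ± 1.28 CPM, again lowest in TBR2+ (-2.42 and 1.33). Gss, which completes glutathione, was at 11.6, 12.2 and 11.8 CPM in the WT means.

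Gsr, which reduces oxidised glutathione, was at 33.4, 31.0, 41.9 and 45.6 CPM in WT PAX6+, at 12.5, 17.3, 13.0 and 12 CPM in TBR2+ and at 9.95, 12.4, 9.86 and 13.4 CPM in PAX6-TBR2- (-1.45 and -1.69). Gsta4, a transferase for lipid peroxidation products, had the largest fitted fold of the tested members. It was at 3.68, 3.97, 4.53 and 5.5 CPM in WT PAX6+, at 1.22, 0.98, 0.184 and 0.819 CPM in TBR2+ and at 0, 0.169, 0.131 and 0.18 CPM in PAX6-TBR2-, the last on 7 counts in the 4 libraries together. The fitted fold change was -4.77 (SE 0.42, 27.4-fold, edgeR adjusted p = 6.82e-08), and it was -4.87 in KO. Gsta4 was too low to be tested between TBR2+ and PAX6-TBR2-. It passed the filter through the PAX6+ libraries, so the size of this fold is uncertain. Gstm5 was at 19.8, 21.9, 21.3 and 23.7 CPM in WT PAX6+ and at 16.7, 13.2, 22.2 and 17.5 CPM in WT TBR2+, overlapping (-0.30, edgeR adjusted p = 0.091). Its fall lay in the step to PAX6-TBR2-, by -1.45 in WT (SE 0.21, edgeR adjusted p = 3.77e-05) and -2.13 in KO (SE 0.18, edgeR adjusted p = 5.3e-07).

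Across the 33 tested members, 22 had their highest WT mean in PAX6+, 10 in TBR2+ and 1, Keap1, in PAX6-TBR2-. The highest population was the same in WT and KO for 30 members and the whole order for 26. In KO the comparisons called 23 of 33 (56.6% of all genes called), 16 of 30 (48.2%) and 18 of 33 (63.6%) members. Calls of the same sign in both genotypes numbered 20, 16 and 16, and none had opposite signs. These counts of order and of repeated calls were not made over all genes, so they cannot show whether the members stand apart.

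A wider list of 79 genes of the same pathways gave 2, 2 and 0 calls between genotypes in PAX6+, TBR2+ and PAX6-TBR2- cells. In PAX6+ cells 2 of 71 tested were called (2.82%, against 3.64% of all genes), both lower in KO: Tkt, the transketolase of the pentose phosphate pathway that feeds NADPH production, from 136 ± 10 to 86.3 ± 11.4 CPM (-0.65, SE 0.11, edgeR adjusted p = 0.00152), and Glrx2, a mitochondrial glutaredoxin, from 63.9 ± 7.73 to 44.0 ± 5.48 CPM (-0.53, SE 0.12, edgeR adjusted p = 0.0208). The groups of either gene did not overlap. Tkt was called in every alternative setting, and Glrx2 was lost without WT PAX6+ replicate 3 or 4 or KO PAX6+ replicate 1, 2 or 3 (-0.46 to -0.52). With the replicate block 4 genes of the list were called in PAX6+. In TBR2+ cells 2 of 68 were called (2.94%, against 1.76%), both higher in KO: Tfb1m, a methyltransferase of mitochondrial ribosomal RNA, from 9.26 ± 1.26 to 16.3 ± 2.57 CPM (0.81, SE 0.17, edgeR adjusted p = 0.0254), and Bach2, a repressor at antioxidant response elements, from 213 ± 26.4 to 295 ± 41.4 CPM (0.47, SE 0.11, edgeR adjusted p = 0.0495). Without WT TBR2+ replicate 1, 2 or 3 or KO TBR2+ replicate 2 or 4 both calls were lost (Tfb1m 0.73 to 0.84, Bach2 0.38 to 0.48), and that of Bach2 also without KO TBR2+ replicate 3 (0.48), with DESeq2 size factors in edgeR (edgeR adjusted p = 0.0516) and on the recovered reads (edgeR adjusted p = 0.0658). In PAX6-TBR2- cells edgeR and DESeq2 called 0 of 69 (against 0.00774% in edgeR), and 7 had an unadjusted p under 0.05. Between populations the wider list was not mostly lower: in WT it had 25 genes higher and 19 lower in TBR2+ than in PAX6+ cells (62.9% called, against 63.2% of all genes), and 26 higher and 24 lower in PAX6-TBR2- than in PAX6+ cells (69.4%, against 66.6%). The 22 tested genes of mitochondrial biogenesis and uncoupling in PAX6+ cells split evenly, 11 above 0 and 11 below, and their median was 0.01.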

How the data were processed

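Per the labels' protocols, RNA came from sorted cells by a RecoverAll kit, and the SPIA method of an Ovation kit amplified it before library preparation; no molecular identifiers are mentioned, so reads are not independent molecules. FastQC, cutadapt, featureCounts, STAR, DESeq2 and mm10 appear in the submitters' processing notes. For versions, annotation release and strand the sources used here give nothing. The authors deposited raw counts per gene, with 2 lane columns a library, summed here, and normalized signal values in the form of counts divided by size factors. Whole reads were recovered from the signal for 100% of values within 0.000001. They equalled the raw counts in all 8 PAX6+ columns and only 1 library elsewhere. In KO TBR2+ the recovered totals were 9547603 to 12080308, above the raw totals of 6402081 to 8215667. The highest total in WT PAX6-TBR2- was 60078232 recovered and 30027954 raw. Why the raw counts there are smaller is not given, and low or 0 counts in these populations carry this limit. Raw counts, which name the replicate, were used, and recovered reads served as an alternative.

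Genes were named and placed with GENCODE M21 (37693 of 39017), on GRCm38, the assembly of mm10. Groups and replicate numbers come from sample titles. edgeR 4.0.16 in R 4.3.3 (filterByExpr, TMM, glmQLFit, glmQLFTest, two-sided) was fitted on the libraries compared, over all genes, with Benjamini-Hochberg adjustment and calls at an adjusted p under 0.05. SE is the size of a log2 fold change over the square root of F, and 95% intervals use 1.96 SE. That factor makes no allowance for the few libraries, so the intervals are approximate and too narrow for the F test. CPM values use TMM totals over all 24 libraries, and levels per kb divide by merged exon length. Near-identical copies were searched with blastn 2.17.0 (at least 95% identity). Matches under 300 bases were kept, as for Sod2 and Gclm. Alternatives were DESeq2 1.42.0, its size factors in edgeR, no filter on low counts, no mitochondrially encoded genes, a replicate block, 1 fit of all libraries and leaving out each library. On data simulated for KO over WT in PAX6+ (14212 genes), 19% of changes of 0.5 and 67% of changes of 1 on the log2 scale were called.

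Libraries of 1 group differed beyond sampling noise (chi-square per degree of freedom 5.65 to 45.5 over 36 pairs). The labels do not say what a replicate number shares. In PAX6+ cells the deviations of same-numbered WT and KO libraries correlated in every pair (0.186 to 0.436, each above 0.1). Numbers were therefore read as possible pairs there and nowhere else. The main fits and those leaving out 1 library still use no block, and the block is given as an alternative.

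The rule for the members uses no measured value, but members and lists were proposed with earlier results of these data known. Values by library are given for members called between genotypes, for Ppargc1a, Ppargc1b, Ucp2 and Hgf where counts allow, and for the 10 largest WT differences between PAX6-TBR2- and PAX6+ cells; other members described in full, among them Srxn1, Prdx2, Sod1 and Gclc, were chosen after their values were seen.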

Additional observations from a re-analysis of the deposited data

Results flagged for a closer look

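In 12 of the 198 sets of 4 libraries (33 members in 6 groups), 1 library stood far from the other 3 by Dixon's test, with a critical value of 0.829. Chance marks about 5% of such sets. Of the mitochondrial regulators none was marked.

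Prdx6 in KO PAX6+ replicate 3 was at 34.47 CPM against 56.47 to 58.66 CPM in the others. In KO PAX6+, Srxn1 was low in replicate 2 (0.7668 CPM against 1.788 to 1.965 CPM) and Txnrd1 in replicate 1 (75.71 against 85.73 to 86.87 CPM). In WT PAX6+, Txn2 was low in replicate 4 (19.04 against 25.53 to 25.68 CPM) and Txnrd2 high in replicate 2 (6.162 against 4.645 to 4.784 CPM).

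In WT TBR2+ replicate 2, Txnrd2 was high (4.411 against 2.937 to 3.114 CPM) and Hmox1 low (1.634 against 2.57 to 2.622 CPM). In KO TBR2+, Txnrd2 was low in replicate 2 (3.313 against 4.359 to 4.562 CPM), Prdx4 low in replicate 4 (4.562 against 7.122 to 7.297 CPM) and Gsta4 high in replicate 1 (2.978 against 0.6292 to 0.9938 CPM). In KO PAX6-TBR2-, Sod1 was high in replicate 3 (49.86 against 39.65 to 40.67 CPM) and Prdx5 low in replicate 1 (14.9 against 18.67 to 19.33 CPM).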

How the results depend on the processing

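The count of members called between KO and WT in PAX6+ cells was 1. It was 3 with the replicate block, 0 in the fit of all 24 libraries, and 0 to 1 when 1 library was left out, and the cause was not tested. For the difference of the genotype effect between PAX6-TBR2- and PAX6+ cells the count was 0 to 1 when 1 library was left out. The other counts of members called stayed within 1.5 times of their value under every alternative run. In the replicate block of the PAX6+ comparison no other call of a member between genotypes changed. In TBR2+ and PAX6-TBR2- cells replicate numbers are not taken as pairs (correlations 0.047 to 0.361 and 0.08 to 0.342); each TBR2+ library correlated best with its own number, and the block called 0 members there and in PAX6-TBR2- cells. Between populations numbers did not pair either (-0.182 to 0.272), and the block lost Txnrd2 (TBR2+ over PAX6+, WT), Prdx3 (PAX6-TBR2- over TBR2+, both genotypes), Prdx6 (same step, WT), Gpx4 (same step, KO) and Gpx1 (PAX6-TBR2- over PAX6+, KO).

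Single members were followed where called, or at an unadjusted p under 0.05 between genotypes, or among the regulators in PAX6+ cells: 135 members and comparisons, of which 115 kept their direction and side of the threshold in every alternative. Of 1908 values under alternatives, 1822 did so, 84 kept the direction and lost the call, 2 gained one (Sod1 and Nfe2l2 with the block) and 0 reversed. Those lost in 7 or more settings were Txnrd2 (TBR2+ over PAX6+, WT), Prdx3 (PAX6-TBR2- over TBR2+, both genotypes), Gpx1 (PAX6-TBR2- over PAX6+, KO), Prdx6 (PAX6-TBR2- over TBR2+, WT), Ppargc1a (KO over WT, PAX6+) and Gpx4 (PAX6-TBR2- over TBR2+, KO).

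Counts of all genes called moved more. In PAX6+ cells 517 genes were called between genotypes and 1045 with the block. In TBR2+ cells it was 223, with 356 in DESeq2, 728 without the filter, 720 with the block and 121 to 420 without 1 library. In PAX6-TBR2- cells it was 1, with 24, 38 and 153 in those settings, 6 in the fit of all libraries and 1 to 3 without 1 library. For the difference of the effect in TBR2+ and PAX6+ it was 89, with 163, 329 and 323 and 71 to 137 without 1 library (137 without KO TBR2+ replicate 1); in PAX6-TBR2- and TBR2+ 7, with 27, 126 and 210 and 3 to 10 without 1 library; in PAX6-TBR2- and PAX6+ 117, with 219 without the filter and 332 with the block. Depth limits Ppara, Hgf, Sod3, Nqo1, Ppargc1b and Gsta4 most.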
